A study of Homo sapiens with 36 samples.

Results

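Of the 36270 CTCF peaks called in control HEK293T cells on chromosomes 1 to 22 and X, 970 (2.67%, exact 95% interval 2.51 to 2.85) held several summits, and 35300 held 1. A peak is a stretch of genome where fragments pulled down with CTCF outnumber the background, and a summit is the base inside it where they pile up highest. The peak caller repeats a peak's line for every summit it finds there, so the 970 peaks were those whose chromosome, start and end stood on 2 or more lines of the control list. They held 2209 of the 37509 control summits. The summit of highest fold enrichment in a peak is called the leading summit here, and the remaining 1239 are called other summits. Number of summits, spacing, width and control enrichment chose or shaped these peaks and are given as a description. The measures the choice did not use are those of the 5 knockdown lists.

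CTCF is a DNA-binding protein with zinc fingers that sits at insulators and loop anchors, and its sites can lie in clusters where neighbouring copies are bound side by side. NuRD is a complex that remodels nucleosomes and removes acetyl groups from histones. Its CHD3, CHD4 and CHD5 subunits are ATP-dependent helicases that move nucleosomes, and MBD2 and MBD3 belong to the methyl-CpG-binding-domain family. Sonicated fragments are longer than a binding site, so close sites share fragments and can be resolved as several summits of 1 peak.

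HEK293T is a human embryonic kidney cell line. Its cells were transfected with small interfering RNAs, named by their target as siCHD3, siCHD4, siCHD5, siMBD2 and siMBD3, or with siNC, a control RNA, so the controls were transfected too. Each condition had 3 CTCF immunoprecipitates and 3 inputs (36 samples in all), and the values used here were 6 peak lists, each pooling the 3 replicates of a condition. The spread between replicates is therefore unknown, no test between conditions was made, and the level of each targeted subunit was not analysed here. Intervals in brackets are exact Clopper-Pearson 95% intervals and cover counting error only, and peaks of 1 list are not replicates of a condition. Fold enrichment is the authors' own value at a summit over local background and ranks summits within 1 list, so folds of different lists are not compared.

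The lists differed in depth. The lowest local background in a list, which scales with fragment coverage, was 1.95 for siCHD5, 1.06 for siCHD4, 0.640 for siMBD2, 0.445 for siCHD3 and 0.374 for siMBD3, against 2.96 for siNC. The longest knockdown list on these 23 chromosomes had 34319 peaks (siCHD3) and the shortest 25358 (siCHD4).

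Most of the 970 control peaks were pairs of summits. There were 795 with 2 summits (82.0%), 113 with 3, 40 with 4 and 17 with 5, and 5 peaks had 6 to 8. The 1239 distances between adjacent summits had a median of 311 bp, with quartiles of 236 and 410 bp. Between 200 and 400 bp lay 736 of them (59.4%, 56.6 to 62.2), and 166 (13.4%) were under 200 bp. The closest summits were 9 bp apart and the farthest 1206 bp.

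**Figure D1:**
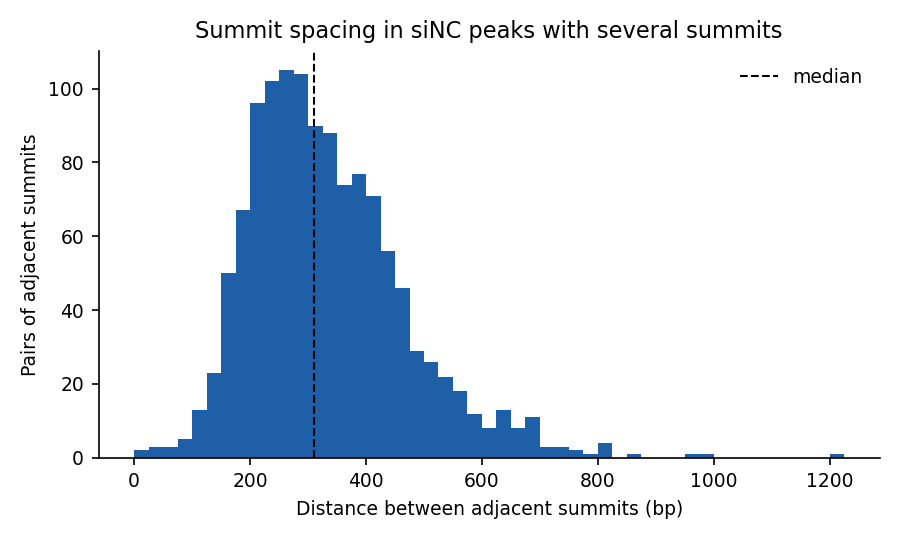
Histogram of the distance in bp between adjacent summits of the 970 siNC peaks with several summits, in bins of 25 bp (y axis, number of pairs of adjacent summits). The dashed line marks the median of 311 bp, and 59.4% of the 1239 distances lie from 200 to 400 bp.

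These peaks were wide, with a median width of 656.5 bp against 301 bp for 1-summit peaks. A width of at least 600 bp was found for 593 of 970 (61.1%) against 171 of 35300 (0.484%), yet the ranges overlapped. The narrowest several-summit peak was 238 bp and the widest 1-summit peak 1164 bp. Leading summits had a median fold of 5.54 (lowest 1.26, highest 23.1), other summits 3.80 and 1-summit peaks 5.22. Leading summits thus had much the same median fold as 1-summit peaks, and other summits a lower one. The median other summit reached 0.753 of its leading fold, and 232 of 1239 (18.7%) reached at least 90% of it. In the 795 peaks with 2 summits the leading one lay at the lower coordinate in 356 (44.8%, 41.3 to 48.3).

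Several-summit peaks occurred on all 23 chromosomes. Their share was highest on chromosome X, at 98 of 1807 peaks (5.42%, 4.42 to 6.57), and lowest on chromosome 22, at 12 of 737 (1.63%). A small group stood apart by its local background. Among the 185 control peaks whose background exceeded 20 times the lowest in the list, 57 (30.8%, 24.2 to 38.0) had several summits, against 913 of the other 36085 (2.53%, 2.37 to 2.70). These 57 had a median fold of 1.93 against 5.73 for the 913. They clustered on chromosome X (10 peaks between 58568252 and 61731346), chromosome 2 (10 between 91596784 and 92325279) and chromosome 16 (9 between 46391901 and 46432839), all in hg19.

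**Figure D2:**
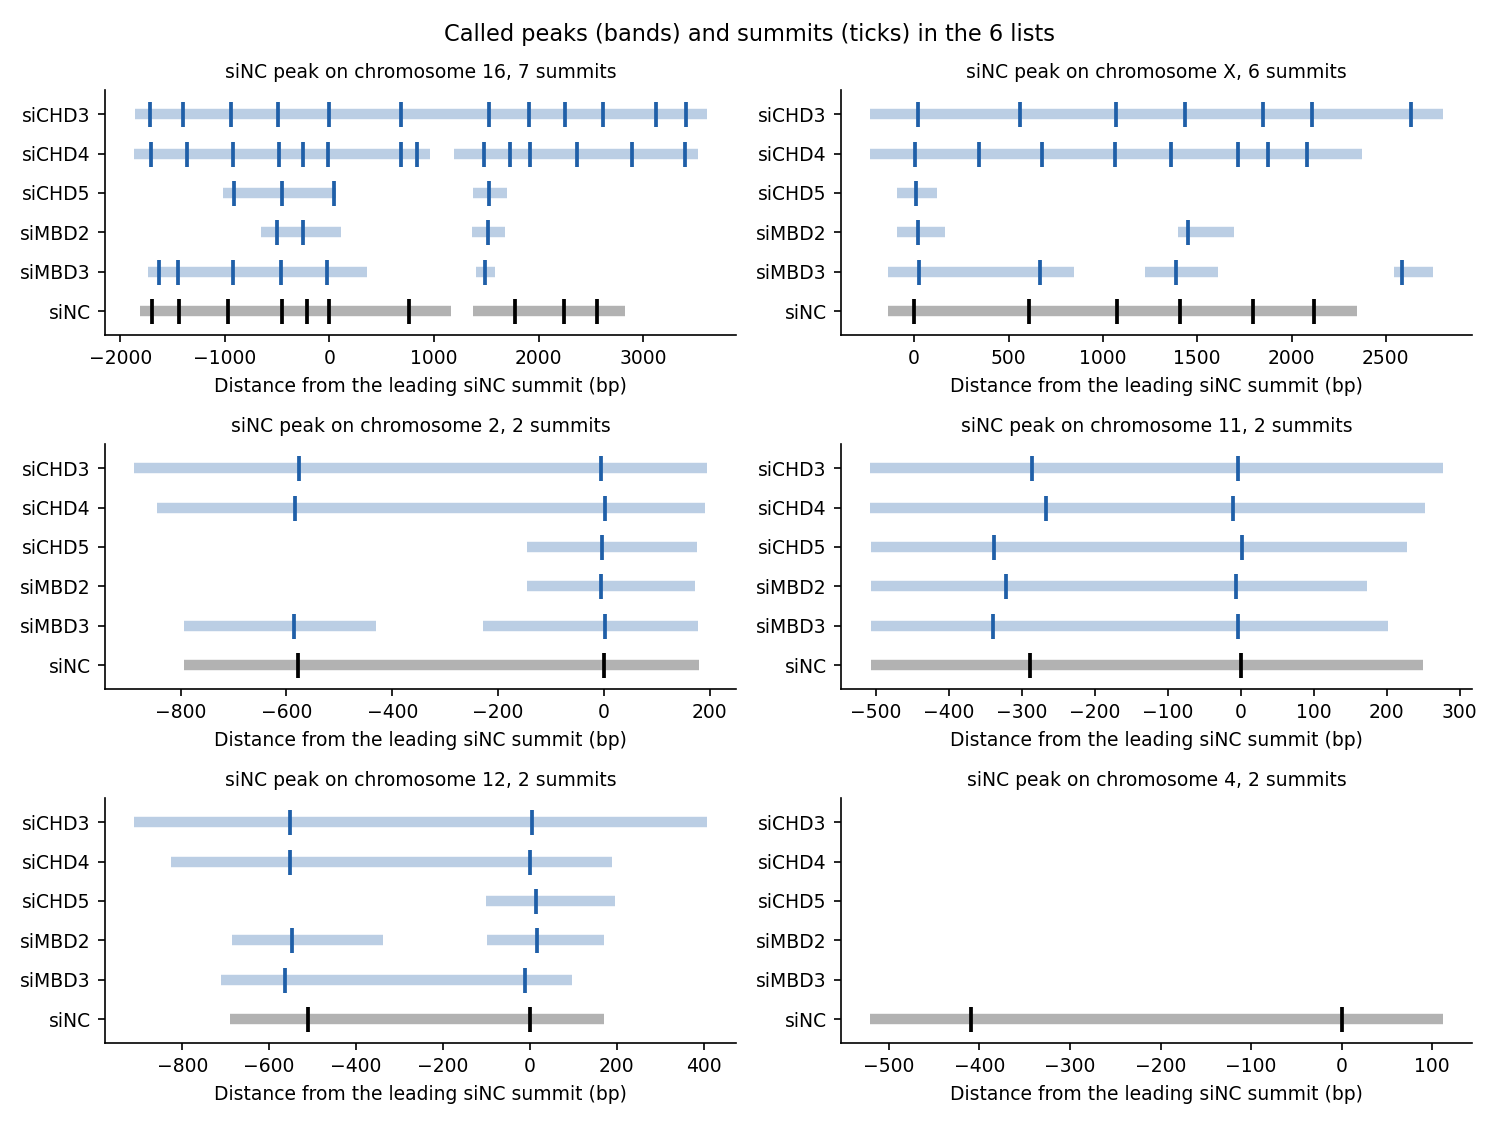
Called peaks (bands) and summits (ticks) of the 5 knockdown lists and, at the bottom, siNC, around 6 control peaks with several summits (x axis, distance in bp from the leading siNC summit). The multi-summit peaks on chromosomes 16 and X are long bands in siCHD3 and siCHD4 and shorter or split bands in siCHD5, siMBD2 and siMBD3.

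Named regions show how summits were found again. A control summit counts as matched when a summit of the knockdown list lies within 100 bp of it. The widest member, chromosome 16 from 2811646 to 2814617 (2972 bp, hg19, 1-based), had 7 control summits with folds from 5.02 to 7.20. Of these 7, siCHD3 matched 6, siCHD4 7, siCHD5 3, siMBD2 2 and siMBD3 5. The peak on chromosome X from 57418932 to 57421415 had 6 summits, of which the leading one (fold 8.76) was matched in all 5 lists. Its other 5 summits (folds 3.27 to 4.70) were matched 5 times in siCHD3 and in siCHD4, 0 times in siCHD5, 1 time in siMBD2 and 2 times in siMBD3. In both regions the array of summits was most complete in siCHD3 and siCHD4. It was not so on chromosome 6 from 74227258 to 74229209 (6 summits), where siCHD5 matched every summit. There the first summit (fold 6.73 in siNC) was unmatched in siCHD3 and siCHD4.

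The strongest member lay on chromosome 2 from 139045464 to 139046435. Its leading summit (fold 23.1 in siNC) was matched in all 5 lists, at folds of 119 (siCHD3), 66.4 (siCHD4), 20.1 (siCHD5), 15.6 (siMBD2) and 37.3 (siMBD3). Its other summit, 579 bp away (fold 6.30 in siNC), was matched in siCHD3, siCHD4 and siMBD3. In siCHD5 and siMBD2 only the strong flank was called, and siMBD3 called the pair as separate peaks. A pair of near-equal summits 289 bp apart on chromosome 11, from 90015730 to 90016485 (folds 12.8 and 12.5 in siNC), was matched at both summits in every list. So was the pair 452 bp apart on chromosome 19, from 13004904 to 13005606 (13.1 and 11.9 in siNC). By contrast, the pair 409 bp apart on chromosome 4, from 58029809 to 58030441 (5.45 and 4.07 in siNC), had no match in any list.

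Some strong summits had no match within 100 bp in 1 or more lists. On chromosome 12 from 104424912 to 104425771, the leading summit (fold 15.6 in siNC) was matched in all 5 lists and the other one, 511 bp away (10.9), in all but siCHD5. The other summit of a pair 217 bp apart on chromosome 12, from 120933913 to 120934617, had a fold of 12.1 against 13.1 at the leading one and was matched in siMBD2 alone. On chromosome 7 from 26236183 to 26236641 the leading summit (12.2) was unmatched in siCHD4, siCHD5 and siMBD2, while the other summit 190 bp away (7.41) was matched in all 5. The nearest summit in the unmatched lists lay 186 to 190 bp away there, and 220 to 230 bp away for the 217 bp pair. These distances put it close to the matched partner, and whether summits were merged was not tested.

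Across all members, the leading summits were found again more often than the summits of 1-summit peaks in siCHD3 and siCHD4, and less often in siCHD5 and siMBD2. In siCHD3, 771 of 970 leading summits were matched (79.5%, 76.8 to 82.0) against 62.4% (61.9 to 62.9) of 1-summit peaks, with 62.8% matched over all control peaks. In siCHD4, 747 were matched (77.0%, 74.2 to 79.6) against 56.6% (56.1 to 57.1), with 57.1% over all control peaks. In siMBD3, 619 were matched (63.8%, 60.7 to 66.8) against 60.2% (59.7 to 60.7), with 60.3% over all. These intervals barely part, and with matches within 50 bp the siMBD3 difference of 3.64 percentage points was 0.145.

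The other knockdowns went the opposite way. In siCHD5, 525 leading summits were matched (54.1%, 50.9 to 57.3) against 78.5% (78.1 to 79.0) of 1-summit peaks, with 77.9% over all control peaks. In siMBD2, 534 were matched (55.1%, 51.9 to 58.2) against 64.4% (63.9 to 64.9), with 64.2% over all. The siMBD2 difference of -9.39 points turned to 4.33 points when any overlap of the peaks by 1 bp was counted instead of summits, while the siCHD5 difference stayed negative at -14.0 points. A wider peak is more easily overlapped by 1 bp, and members were wider than 1-summit peaks.

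Depth was set beside these shares. The chance that a control summit, thinned to the coverage of a list, would still pass that list's threshold averaged 96.8% for leading summits and 97.0% for 1-summit peaks in siCHD5. The averages were 64.4% and 67.0% in siCHD3, 85.8% and 87.9% in siCHD4, 72.9% and 75.9% in siMBD2, and 56.9% and 58.5% in siMBD3. These are values of a thinning model, which the matched share of leading summits exceeded in siCHD3 (79.5%) and in siMBD3 (63.8%). The share of 1-summit peaks exceeded it in siMBD3 (60.2%) but not in siCHD3 (62.4%). Leading summits fell short of the model in siCHD4 (77.0%), siCHD5 (54.1%) and siMBD2 (55.1%). So did 1-summit peaks in these lists, at 56.6%, 78.5% and 64.4%. The part of depth in the differences was not tested.

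**Figure D3:**
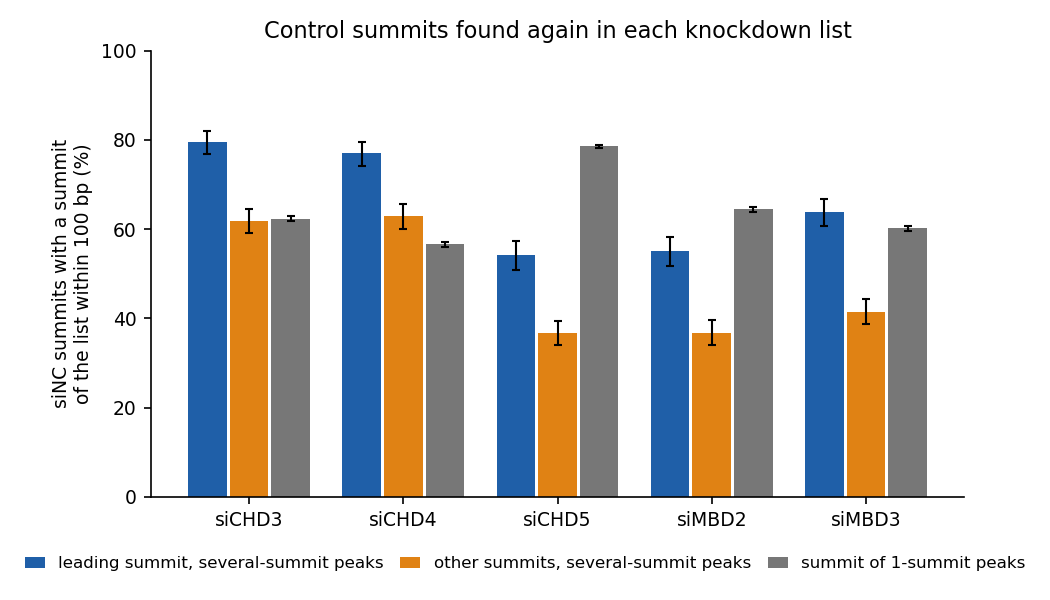
Percent of siNC summits with a summit of each knockdown list within 100 bp (y axis), for leading summits (blue, 970) and other summits (orange, 1239) of several-summit peaks and for the summits of 1-summit peaks (grey, 35300); error bars are exact 95% intervals. Leading summits stand above 1-summit peaks in siCHD3 and siCHD4 and below them in siCHD5 and siMBD2.

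Other summits were matched less often than leading ones in all 5 lists, by 14.1 points (siCHD4) to 22.3 points (siMBD3). The gap narrowed to between 4.77 and 9.10 points with −log10 q of at least 10 in each list, and to between 0.308 (siMBD2) and 7.41 points with lists of equal length. Of the 1239, siCHD3 matched 766 (61.8%, 59.1 to 64.5) and siCHD4 779 (62.9%, 60.1 to 65.6). The siCHD5 list matched 454 (36.6%, 34.0 to 39.4), siMBD2 456 (36.8%, 34.1 to 39.6) and siMBD3 514 (41.5%, 38.7 to 44.3). Over all 37509 control summits the matched shares were 62.8%, 57.3%, 76.5%, 63.3% and 59.6% in the same order. Other summits thus stayed near or above the share of all summits in siCHD3 and siCHD4 and well below it in the other lists. Other summits had a lower control pileup, at a median of 29 fragments against 49 at leading summits. Their thinned chance of a call was also lower, at 39.0% for siCHD3, 63.4% for siCHD4 and 85.8% for siCHD5, and at 46.8% for siMBD2 and 32.1% for siMBD3.

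Counted by peak, siCHD3 matched every summit of 429 members, siCHD4 of 442, siCHD5 of 261, siMBD2 of 234 and siMBD3 of 250. Over all control peaks, most with 1 summit only, these shares were 61.9%, 56.3%, 77.2%, 63.4% and 59.3%. No summit was matched in 85, 106, 361, 330 and 231 members, against 36.9%, 42.6%, 21.9%, 35.5% and 39.4% of all control peaks. The rest kept part of their summits, and among those the leading one was kept in 72.3% to 75.9%, depending on the list. Across the 5 lists together, 101 members (10.4%) had all summits matched in all of them, against 31.2% of all control peaks, with a median leading fold of 8.14 in siNC. In 16 (1.65%) none was matched anywhere, against 8.76% of all control peaks. These 16 had a median leading fold of 3.32 and a median width of 403.5 bp. The high local background described above was found in 15 of the 101 and in 1 of the 16. A peak with more summits has more chances of any match and fewer of a match at every summit, which bears on these shares. Leading summits alone were matched in no list in 6.60% of members, against 8.95% of 1-summit peaks.

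The contrast between lists was also seen at like control enrichment. In deciles of control fold set over all 36270 peaks, the matched share of leading summits lay above that of 1-summit peaks in 10 of 10 deciles in siCHD3 and in siCHD4, with intervals apart in 9 and 10 of them. It lay below in 9 of 10 in siCHD5 and in siMBD2, with intervals apart in 9 and 7, and siMBD3 was split 5 to 5. The remaining siMBD2 decile, the lowest, went the other way with intervals apart (40.7% against 29.2%). In the second decile, 74.4% against 47.4% were matched in siCHD3, and 19.2% against 60.9% in siCHD5. In the highest decile the shares were 95.6% against 82.5% in siCHD3 and 86.9% against 95.2% in siCHD5. The lowest decile was also the exception in siCHD5 (46.7% against 43.2%), and 54 of its 135 members had the high local background described above.

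**Figure D4:**
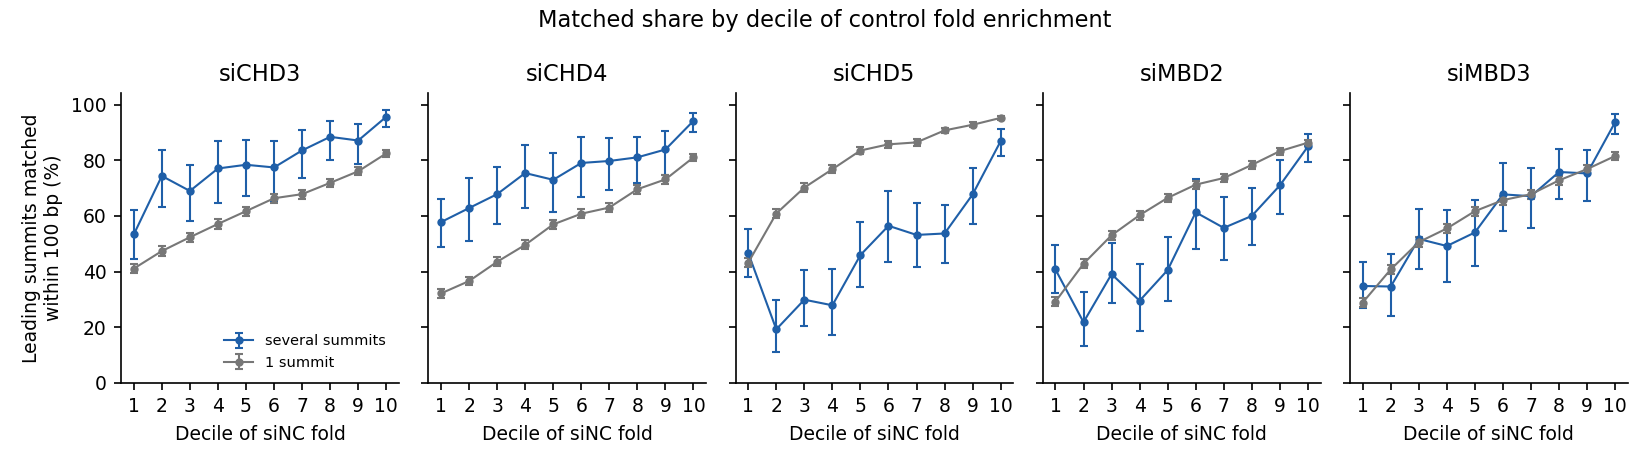
Percent of leading summits matched within 100 bp (y axis) by decile of siNC fold (x axis, 1 lowest), 1 panel per knockdown list, for several-summit peaks (blue) and 1-summit peaks (grey), with exact 95% intervals. The blue line lies above the grey one in siCHD3 and siCHD4 and below it in 9 of 10 deciles in siCHD5 and siMBD2.

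In quintiles of the control pileup, the number of fragments over the summit, siCHD3, siCHD4 and siCHD5 showed much the same order. In the lowest quintile, 62.9% against 33.2% were matched in siCHD3, 56.6% against 26.8% in siCHD4 and 10.2% against 26.9% in siCHD5. In the highest, siCHD4 matched 209 of 220 leading summits against 90.1% of 1-summit peaks. The shares there were 89.1% against 92.6% in siCHD3 and 96.8% against 99.6% in siCHD5. In all 3 of these lists the widest gap was in the second quintile, with 79.8% against 41.6% in siCHD3, 72.6% against 35.9% in siCHD4 and 33.2% against 71.5% in siCHD5. In siCHD3 the sign turned in the highest quintile. The siMBD2 deficit was small in 3 of 5 quintiles, at 16.4% against 16.6%, 42.3% against 44.6% and 88.0% against 88.8%, and intervals were apart in the other 2 (57.1% against 71.9% and 91.8% against 97.2%). In siMBD3 leading summits lay above 1-summit peaks in 4 of 5 quintiles, with intervals apart in 3, and below in the highest (89.1% against 94.5%).

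Width moved with these differences. Within a class of control width, leading summits were in no list matched more often than 1-summit peaks. Among peaks of at least 600 bp (593 several-summit, 171 1-summit), 88.0% against 88.9% were matched in siCHD3 and 84.5% against 84.8% in siCHD4. The other lists matched 60.0% against 69.6% (siCHD5), 61.4% against 64.9% (siMBD2) and 70.5% against 73.7% (siMBD3). Wide 1-summit peaks thus had shares close to those of wide several-summit peaks in siCHD3 and siCHD4. Among peaks of 300 to 399 bp (64 and 13838), 51.6% against 75.3% were matched in siCHD3 and 34.4% against 91.5% in siCHD5. In siCHD5 the matched share of 1-summit peaks peaked at 91.5% in that class and was lower in the widest class, while several-summit peaks climbed to 60.0%.

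**Figure D5:**
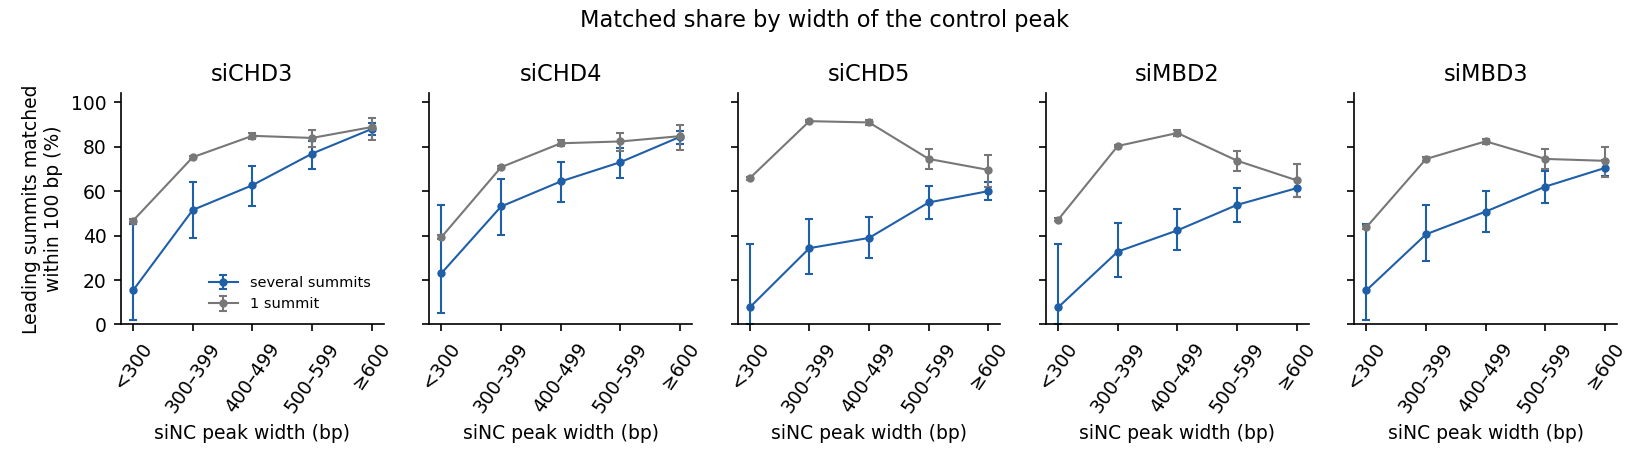
Percent of leading summits matched within 100 bp (y axis) by width of the siNC peak in bp (x axis), 1 panel per knockdown list, for several-summit peaks (blue) and 1-summit peaks (grey), with exact 95% intervals. At 600 bp or more both lines come within 1 point of each other in siCHD3 and siCHD4, and the blue line is the lower one in each class.

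Within the members, peaks with 4 or more summits kept their leading summit more often than pairs did. With 4 or more summits (62 peaks) siCHD3 matched it in 95.2%, siCHD4 in 91.9%, siCHD5 in 75.8%, siMBD2 in 69.4% and siMBD3 in 80.6%, against 78.0%, 75.8%, 53.2%, 53.6% and 62.6% of the 795 pairs, and the intervals overlapped in siMBD2 alone. The 113 peaks with 3 summits lay near the pairs, at 81.4%, 77.0%, 48.7%, 57.5% and 62.8%. The median leading fold in siNC was 5.44 in pairs, 5.70 with 3 summits, 7.37 with 4 and 6.32 with 5. The part of fold in these shares was not tested. The pairs spaced farthest apart were kept whole more often than the closest ones. Both summits were matched in 66.1% of the 218 pairs at least 400 bp apart against 21.9% of the 96 pairs under 200 bp in siCHD3. In siCHD5 these shares were 35.3% and 8.33%. Whether close summits were merged into 1 in a knockdown list was not tested.

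Both the presence and the shape of the called peak differed between lists. A peak of the knockdown list overlapped 93.0% of members against 63.8% of 1-summit peaks in siCHD3 (64.6% of all control peaks) and 90.9% against 57.6% in siCHD4 (58.5%). For siCHD5 the shares were 64.8% against 78.9% (78.5%), for siMBD2 69.3% against 64.9% (65.1%), and for siMBD3 81.2% against 60.9% (61.5%). Members were wider than 1-summit peaks (median 656.5 bp against 301 bp), and a wider peak is more easily overlapped. The part of width in these shares was not tested. A single several-summit peak overlapped 621 members (64.0%) in siCHD3 and 573 (59.1%) in siCHD4, where 4.30% and 2.97% of all control peaks did so. It overlapped 279 (28.8%) in siCHD5, 237 (24.4%) in siMBD2 and 264 (27.2%) in siMBD3, where 1.10%, 0.929% and 0.946% of all did so. Most members thus lay under a several-summit peak in siCHD3 and siCHD4, whose summits need not be those of the member: every summit was matched in 44.2% and 45.6% of members there. In siMBD3, a 1-summit peak was the commonest form, over 435 members (44.8%), and 89 members (9.18%) were split into separate peaks, against 15 (1.55%) in siCHD3. Members called with several summits in all 5 knockdown lists numbered 97 (10.0%), against 0.278% of all control peaks, with a median leading fold of 8.40 in siNC. In none of the lists were 185 (19.1%) so called, against 94.5% of all control peaks, with a median of 4.46.

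Seen from the knockdown lists, siCHD3 held 1560 several-summit peaks of 34319 (4.55%) and siCHD4 1029 of 25358 (4.06%), against 970 of 36270 (2.67%) in siNC. The shares were 421 of 31451 (1.34%) in siCHD5, 351 of 26087 (1.35%) in siMBD2 and 354 of 25848 (1.37%) in siMBD3. The largest number of summits in 1 peak was 13 in siCHD3 and 10 in siCHD4, against 8 in siNC, and the median spacing was 406 bp and 346 bp against 311 bp. Several-summit peaks of siMBD3 mostly lay on control ones (285 of 354, 80.5%), whereas in siCHD3 this held for 604 of 1560 (38.7%). In siCHD3 another 656 lay on control peaks with 1 summit and 300 (19.2%) on no control peak. Of the 32759 1-summit peaks of siCHD3, 10899 (33.3%) lay on no control peak, a larger share. Control peaks with several summits lay under 293 of them (0.894%), and under 595 of 25494 1-summit peaks (2.33%) in siMBD3.

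Matched members also ranked high in the siCHD3 and siCHD4 lists. Of the knockdown summits matched to a leading summit, 548 of 771 (71.1%, 67.7 to 74.3) in siCHD3 and 462 of 747 (61.8%, 58.3 to 65.3) in siCHD4 were among the top 10% of their list by fold. For 1-summit peaks the shares were 11.5% and 9.81%. The members' share was 8.38% against 11.1% in siCHD5, while siMBD2 had 10.9% against 11.1% and siMBD3 29.6% against 11.1%. In the control list itself it was 21.2% against 9.69%. The matched peaks were also wide in siCHD3, with a median of 943 bp against 277 bp, and in siCHD4, with 753 bp against 249 bp.

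Where all summits of a member were found again, their spacing and order could be compared with siNC, although a match within 100 bp itself limits how far spacing can differ. Distinct matches for every summit were found for 423 (siCHD3), 439 (siCHD4), 259 (siCHD5), 230 (siMBD2) and 245 (siMBD3) members. The median absolute difference in spacing was 15 bp in siCHD5 and 20 to 23 bp in the other lists. The matched summits lay in 1 peak for 96.9% of these members in siCHD3, 95.4% in siCHD4 and 91.5% in siCHD5, but for 81.7% in siMBD2 and 79.2% in siMBD3. The leading summit was the same as in siNC for 64.5% (siMBD3) to 69.5% (siCHD5). Most of these members were pairs, 371 of 423 in siCHD3 and 221 of 245 in siMBD3. In a pair, even an unrelated order would agree in 1 of 2 cases.

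The combination of lists that kept a leading summit also differed. All 5 lists matched it in 341 members (35.2%, 32.1 to 38.3) against 31.8% of 1-summit peaks. It was matched in siCHD3 and siCHD4 alone in 93 (9.59%, 7.81 to 11.6) against 2.24%, and in siCHD3, siCHD4 and siMBD3 alone in 87 (8.97%) against 1.45%. It was matched in siCHD4 but not siCHD5 in 303 members (31.2%) and in siCHD5 but not siCHD4 in 81 (8.35%). For 1-summit peaks these shares were 6.54% and 28.5%, the reverse order. All 5 lists were matched to the same siNC list, so these combinations share their control.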

How the data were processed

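CTCF ChIP-seq and input of HEK293T cells were deposited as 6 peak lists, each named as 3 replicates called together. Tools named in the submitters' processing notes are MACS2 2.1.2 and Bowtie2 2.3.4 with the hg19 build, beside SAMtools 1.9, deepTools 3.5.0, bedtools 2.25.0 and FastQC 0.11.7. Their settings are not given in the sources used here. Each deposited line gives the authors' fold enrichment (a ratio over local background), −log10 p, −log10 q, display score (not used) and summit offset (column 10). Read totals were not used here. Depth was read from the lists, by solving pileup and background from the authors' fold and p (pileup plus 1 over background plus 1, Poisson upper tail, matched within 0.01%). Libraries were amplified by PCR without molecular identifiers named.

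Lines with the same chromosome, start and end were joined into 1 peak, and the summit of highest fold was called leading (ties by smaller p, then lower position). Matches needed a knockdown summit within 100 bp, and overlaps 1 bp. Shares carry exact 95% intervals, and no test was run. Python 3.11.15, numpy 2.4.6, pandas 2.3.3 and scipy 1.17.1 were used, and the computation was tested on simulated data. Members, classes and alternatives were chosen with earlier results of these data known. Named regions were the 5 members with the most summits, of highest leading fold, of highest lowest-summit fold among those matched throughout, and of highest leading fold among those matched nowhere. Also named were, per knockdown, the 3 of highest fold at an unmatched other or leading summit with another summit matched. Only some of these regions are printed, not strictly by rank, and the 2 members with 8 summits are not among them. Alternatives were 50 and 200 bp, nearest match only, −log10 q of at least 10, lists of equal length, weighting by the thinned chance of a call, and all contigs. Overlap in place of summits, leaving out high background, leaving out chromosome X, and all alternatives for the difference from 1-summit peaks were added after seeing the data. Gene names, motifs and sequences are not given, because no hg19 genome or annotation entered this work.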

Additional observations from a re-analysis of the deposited data

Results flagged for a closer look

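The difference between leading summits and 1-summit peaks had opposite signs in different knockdown lists. It was 41.5 percentage points higher in siCHD3 than in siCHD5 and 26.5 higher than in siMBD2. It was 44.9 points higher in siCHD4 than in siCHD5 and 29.8 higher than in siMBD2. For siMBD3 the gaps were 28.1 points to siCHD5 and 13.0 points to siMBD2. With 1 pooled list per condition these differences were not tested.

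Outside chromosomes 1 to 22 and X, which the counts above do not use, 56 of 585 control peaks had several summits (9.57%, 7.31 to 12.3), beside 970 of 36270 (2.67%) on those chromosomes. This difference was not tested.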

How the results depend on the processing

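No paired analysis was possible because each list pools its 3 replicates, and for the same reason no replicate could be left out. Of 131 alternatives, 63 moved a value by less than its interval, 67 moved it further and 1 turned its sign; the cause was not tested. Values below run siCHD3, siCHD4, siCHD5, siMBD2, siMBD3.

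Matched leading summits were 72.8, 71.2, 50.7, 49.9 and 58.8% within 50 bp and 85.9, 83.3, 57.3, 59.5 and 68.9% within 200 bp. They were 75.9, 72.8, 49.7, 40.6 and 45.7% when both lists were held to −log10 q of at least 10. With lists of equal length (26289 summits) they were 85.7% in siCHD3, 86.9% in siCHD4, 72.1% in siMBD2 and 81.1% in siMBD3. Weighted by the chance of a call they were 86.7% in siCHD3, 81.4% in siCHD4, 67.0% in siMBD2 and 80.3% in siMBD3. Matched other summits were 52.0, 54.9, 32.9, 32.0 and 35.6% within 50 bp, and 72.3, 73.4, 41.2, 43.3 and 49.9% within 200 bp. They were 78.3, 83.1, 50.1, 71.8 and 75.2% with equal lengths and 74.8, 72.6, 40.6, 56.8 and 66.9% weighted. With −log10 q of at least 10 they were 67.4% in siCHD3, 68.0% in siCHD4, 42.7% in siCHD5 and 36.6% in siMBD3. Without high background they were 33.4% in siCHD5.

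Leading minus 1-summit differences were 13.0, 16.3, −13.2 and 0.145 points in siCHD3, siCHD4, siMBD2 and siMBD3 within 50 bp, and 22.6, 26.0, −5.33 and 8.18 points within 200 bp. With −log10 q of at least 10 they were 36.3 in siCHD3, 33.3 in siCHD4, −32.9 in siCHD5 and 7.37 in siMBD3, and with equal lengths −33.7 in siCHD5. Counting overlap of 1 bp gave 29.2, 33.3, −14.0, 4.33 and 20.3 points, which turned the sign in siMBD2. With −log10 q of at least 10, 406 control peaks had several summits, at a median spacing of 334 bp.

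An unmatched summit is one with no knockdown summit within the match distance, whether none was called or one was called farther away. In siCHD3 a peak overlapped 93.0% of members, while 79.5% had their leading summit matched and 85.9% did within 200 bp. How many unmatched summits were shifted or merged was not tested. Calling itself depends on depth, enrichment and threshold together.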

Other observations

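Leading summits on chromosome X (98) differed from those on the autosomes (872) by less than their intervals. The shares were 76.5% against 79.8% (siCHD3), 82.7% against 76.4% (siCHD4), 59.2% against 53.6% (siCHD5), 53.1% against 55.3% (siMBD2) and 59.2% against 64.3% (siMBD3).

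Control local background split the members further. Where it was under 2 times the lowest in the list, leading summits of 354 several-summit peaks against 8345 1-summit peaks were matched in 74.3% against 38.3% in siCHD3 and in 23.2% against 42.0% in siCHD5. Where it was 5 to 20 times the lowest (166 and 10138 peaks), the shares were 91.0% against 85.4% in siCHD3 and 91.6% against 98.4% in siCHD5. Both signs turned above 20 times the lowest (57 and 128 peaks), with 66.7% against 74.2% in siCHD3 and 91.2% against 90.6% in siCHD5, where intervals overlapped. In siMBD2 the share under 2 times the lowest was 30.5% against 28.2%.

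In pairs whose other summit had under 0.5 of the leading fold (102 pairs), the leading summit was matched in 96.1% and the other in 53.9% in siCHD3, and in 83.3% and 26.5% in siCHD5. In pairs with at least 0.9 of it (165 pairs), the shares were 70.3% and 62.4% in siCHD3 and 49.1% and 47.3% in siCHD5.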
